A study of Mus musculus with 26 samples.

Results

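The genes studied here are 9 that medium spiny neurons of both dopamine receptor classes use, followed through RNA of the accumbens nucleus: Ppp1r1b, Pde10a, Rgs9, Gng7, Adcy5, Bcl11b, Meis2, Foxp1 and Scn4b. They are the genes with these symbols, picked as known markers of such neurons with earlier results of these data known, and are 9 of the 31735 genes listed in every count file. All 9 were present in all 26 libraries, and all 9 passed the filter on low counts in each comparison. The lowest count of any of them in an immunopurified library was 72, for Scn4b.

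The libraries come from adult Drd2-TRAP CP101 mice whose strain is given as FVB/N-Swiss Webster, then crossed for at least 9 generations to C57BL/6. Every animal carries the transgene, which places EGFP on ribosomal protein L10a under the Drd2 promoter, so that antibodies against EGFP pull down the polysomes of cells that use this promoter. In the striatum these are the D2 medium spiny neurons and also the cholinergic interneurons. Mice worked for cocaine or for saline by long-access intravenous self-administration. The immunopurified groups are cocaine escalating (2 libraries), cocaine nonescalating with withdrawal (8), cocaine nonescalating (5), saline with withdrawal (6) and saline (3), and total input RNA was sequenced once for cocaine nonescalating and once for saline. The 5 libraries titled nonescalating carry the word withdrawal in their description field, and their group here follows the title. The labels give neither the length of withdrawal nor whether a library holds 1 animal or several, so p-values measure only the spread between libraries, which may in part be technical. The titles repeat replicate numbers across library sets: the 8 nonescalating withdrawal libraries carry 5 distinct numbers and the 6 saline withdrawal libraries carry 3. Whether same-numbered libraries of a group share an animal is not given, so n counts libraries, and p-values of the withdrawal comparisons would be too small if they do. The other comparisons between immunopurified groups share their estimate of spread with the withdrawal libraries, so their p-values could be affected too.

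Medium spiny neurons are the GABAergic projection neurons of the striatum, and dopamine acts on them largely through cyclic AMP: D1 receptors raise it and D2 receptors lower it. Ppp1r1b, Pde10a, Rgs9, Gng7 and Adcy5 encode parts of that path, namely a cyclase, a G protein subunit, a regulator of G proteins, a phosphodiesterase and a phosphatase inhibitor that protein kinase A switches on. Bcl11b, Meis2 and Foxp1 encode transcription factors of striatal neuron development that remain on in the adult, and Scn4b encodes an auxiliary subunit of sodium channels.

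Counts in genes ran from 1541717 to 17504022 per immunopurified library, and were 37500580 in the nonescalating input and 4700347 in the saline input. Records that fell in no feature made up 29.7% to 62.5% of an immunopurified library. Levels are in CPM, counts scaled to a common library total with TMM factors (trimmed mean of M values). For D2 and D1 markers the pull-down followed its label. The summed level of 8 D2 markers was 1336 to 10350.0 CPM in immunopurified libraries, against 2001 and 1462 CPM in the nonescalating and saline inputs. That of 8 D1 markers was 73.1 to 209 CPM, against 432 and 478 CPM. The 7 cholinergic interneuron markers summed to 23.9 to 215 CPM, against 152 and 48.7 CPM, so their sum was not set apart from the inputs. Gene by gene, in the comparison with input given below, 1 of these 7 had a log2 fold change above 0. Their median was -1.45, with 0 of 7 called by edgeR. The library labelled nonescalating replicate 4 stood apart, with a D2 sum of 1336 CPM, below both inputs, and 62.5% of records in no feature. Endothelial markers summed to 296 to 5142 CPM in immunopurified libraries, against 101 and 299 CPM in the nonescalating and saline inputs. The 16 libraries of set 1 and the 8 of set 2, told apart by their library numbers, hold the withdrawal groups in both sets and all other groups in set 1 only.

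The 9 genes together took 0.205% to 1.06% of the gene counts of an immunopurified library, against 0.465% in the nonescalating input and 0.57% in the saline input. Per kilobase of exon, Ppp1r1b averaged 375 ± 175 CPM (SD, n = 24 immunopurified libraries) and Gng7 332 ± 114 CPM. The length is that of all annotated exons of a gene merged, from 2.93 kb for Ppp1r1b to 13.75 kb for Foxp1. It can exceed the length of the transcripts present, so the order between genes may depend on it. Ppp1r1b lay above Gng7 in 14 of 24 libraries, so these neighbours did not separate. Pde10a followed at 158 ± 62.6 CPM per kilobase and was below Gng7 in 24 of 24. Foxp1 came next at 82.6 ± 17.3 CPM per kilobase. Scn4b, Rgs9, Bcl11b, Adcy5 and Meis2 lay between 53.4 and 68.8 CPM per kilobase, and each was above the next one in 13 to 16 of 24 libraries, so their order is not settled. By rank per kilobase, Rgs9 stood at 4 of 9 in the nonescalating input and 3 of 9 in the saline input, with a median rank of 7 in immunopurified libraries. Foxp1 ranked 7 of 9 and 9 of 9 in those inputs, with a median rank of 4 in immunopurified libraries.

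**Figure D1:**
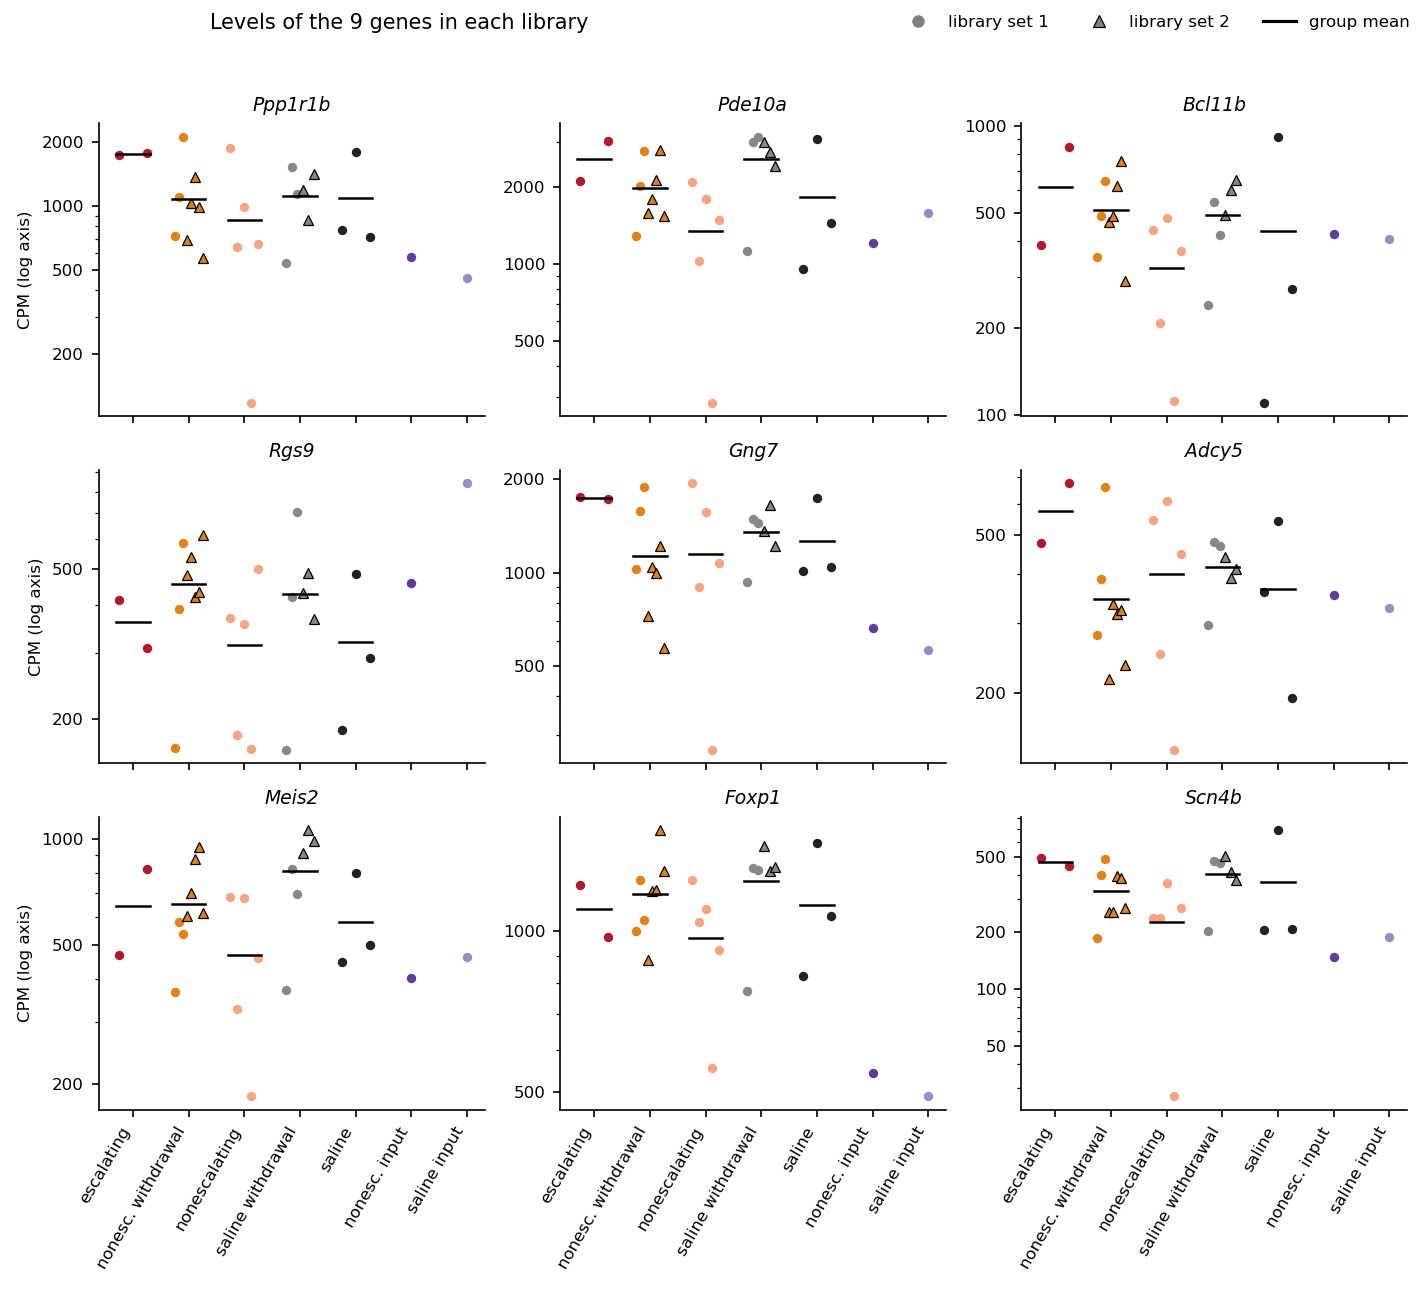
Level of each gene (y axis, CPM on a log axis) in each library (points), by group (x axis), with circles for library set 1, triangles for set 2 and bars for group means. For 7 of the 9 genes the lowest immunopurified point is nonescalating replicate 4, such as 117 CPM for Ppp1r1b and 27.0 CPM for Scn4b.

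The first comparison asked how far immunopurified RNA differed from total RNA for genes that D1 and D2 neurons share. It set the 8 nonescalating and saline libraries without withdrawal against the 2 inputs, with agent as a term, over 14929 genes. Each agent has 1 input, so SE and p-values here rest mostly on the spread of the immunopurified libraries. The fold changes of the 9 genes were small beside those of the D2 markers: their median log2 fold change was 0.28 with 7 of 9 above 0, the median of all genes was 0.07 with 53.0% above 0, and that of the D2 markers was 1.74 with 8 of 8 above 0. The D1 markers had a median of -2.11 with 0 of 8 above 0. The quasi-likelihood test of edgeR was used, with p-values adjusted after Benjamini and Hochberg over all genes. At a threshold of 0.05, 0 of 9 passed, where 0.255% of all genes did. Of the D2 markers 0 of 8 passed and of the D1 markers 0 of 8, so the calls do not separate the 9 genes from either. Of the endothelial markers 1 of 8 passed, and of the pericyte and smooth muscle markers 2 of 7. At an unadjusted p under 0.05 the count was 1 of 9, Foxp1, against 8.27% of all genes. DESeq2 called 0 of 9, and limma voom called 1, Foxp1. In such bulk RNA, fewer cells of a type and less RNA per cell cannot be told apart. Polysome RNA is set against total RNA here, so the cells pulled down and the share of an RNA on polysomes cannot be told apart either.

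Foxp1 encodes a forkhead transcription factor that acts in striatal neuron differentiation. Its level was 554, 1053 and 1465 CPM (lowest, median and highest) in the 8 immunopurified libraries, against 543 and 491 CPM in the nonescalating and saline inputs. It lay above both inputs in 8 of 8, as did 3.26% of all genes. The log2 fold change was 1.02 ± 0.44 (SE), with an unadjusted p of 0.0332 and an adjusted p of 0.518 by edgeR, and 0.89 with an adjusted p of 0.0344 by limma voom. Over the other alternatives in which it was computed Foxp1 missed the threshold.

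Gng7 encodes the G protein subunit gamma 7, which couples striatal receptors to adenylyl cyclase together with the olfactory type alpha subunit. Immunopurified libraries held 269, 1057 and 1939 CPM, against 661 and 563 CPM in the nonescalating and saline inputs. Of the 8, 7 lay above both inputs, as did at least 7 of 8 for 8.43% of all genes, and the exception was nonescalating replicate 4. The log2 fold change was 0.98 ± 0.58 (SE, adjusted p = 0.745 by edgeR).

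Ppp1r1b encodes DARPP-32, which inhibits protein phosphatase 1 once protein kinase A has phosphorylated it. It stood at 117, 740.2 and 1888 CPM in immunopurified libraries, against 571 and 458 CPM in the nonescalating and saline inputs, and again all but nonescalating replicate 4 were above both inputs. For 8.43% of all genes at least 7 of 8 libraries were above both. The log2 fold change was 0.90 ± 0.70 (SE, adjusted p = 0.907 by edgeR). A gene on the opposite strand, 1700003D09Rik, overlaps Ppp1r1b, and it held at most 394 counts in a library.

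Scn4b encodes the beta 4 subunit that shapes the resurgent sodium current. It had 27.0, 236 and 691 CPM in immunopurified libraries, against 147 and 189 CPM in the nonescalating and saline inputs, with 7 of 8 above both inputs. At least 7 of 8 were above both for 8.43% of all genes. Its log2 fold change was 0.79 ± 0.70 (SE, adjusted p = 0.943 by edgeR). Across the other 9 voltage-gated sodium channel subunits tested, which were listed with earlier results known, the median was -1.02 and 1 of 9 was above 0, with 0 of 9 called. The smallest p among them belonged to Scn3a, with a log2 fold change of -1.27 ± 0.55, then Scn1a with -1.07 and Scn9a with -1.71.

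Meis2, a homeodomain transcription factor, and the remaining cyclic AMP genes lay near the inputs. Meis2 had 184, 479 and 797 CPM in immunopurified libraries, against 402 and 462 CPM in the nonescalating and saline inputs (log2 fold change 0.28 ± 0.48). Pde10a, the dual phosphodiesterase that is abundant in striatum, had 285, 1469 and 3096 CPM, against 1213 and 1586 CPM (0.19 ± 0.59). Adcy5, the main striatal adenylyl cyclase, had 144, 403 and 609.8 CPM, against 354 and 328 CPM (0.18 ± 0.53). For Pde10a and Meis2, 2 of the 8 libraries fell between the inputs. Bcl11b, the zinc finger factor also called CTIP2, had 110.4, 322 and 919 CPM, against 425 and 406 CPM (-0.16 ± 0.63). The signs of Pde10a and Adcy5 turned under limma voom, and that of Bcl11b turned when all 24 immunopurified libraries were used. The 95% intervals of these 4 genes reached from -1.48 to 1.43 on the log2 scale in all.

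Rgs9 had the lowest fold change of the 9. It encodes a regulator that speeds GTP hydrolysis by inhibitory G protein alpha subunits, with a long splice form in the striatum. Immunopurified libraries held 167, 324 and 499.8 CPM, against 459.8 and 841 CPM in the nonescalating and saline inputs. Of the 8, 6 lay below both inputs and 2 between them, and over all groups 16 of 24 lay below both. Of all genes, 22.4% lay below both inputs in at least 6 of 8, 22.8% in at least 16 of 24, and 4.27% in all 8. The log2 fold change was -0.97 ± 0.47 (SE, unadjusted p = 0.057, adjusted p = 0.631 by edgeR). The inputs themselves differed by a factor of 1.83, more than for any other of the 9 genes, so the input level of Rgs9 rests on a pair of unequal libraries.

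**Figure D2:**
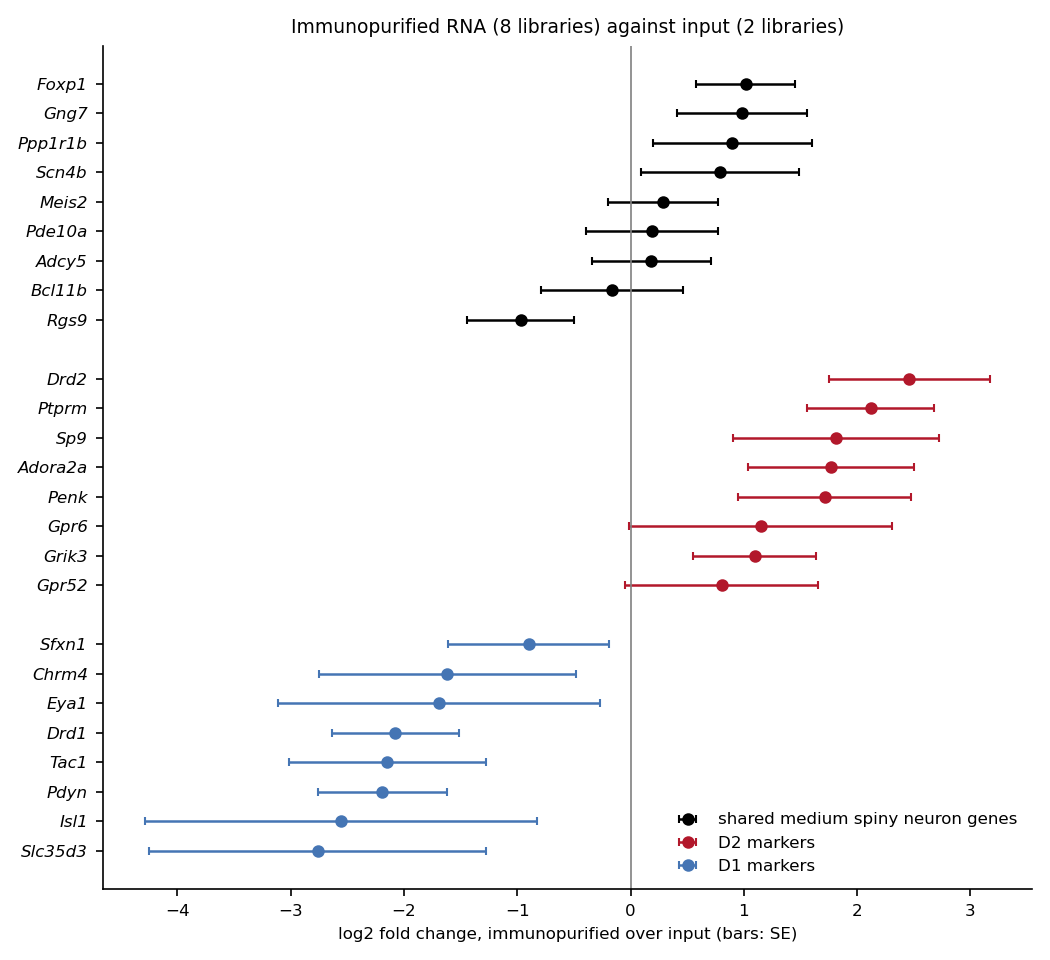
Log2 fold change of immunopurified over input RNA (x axis, bars are SE) for the 9 genes, 8 D2 markers and 8 D1 markers (y axis). Foxp1 is highest of the 9 at 1.02 and Rgs9 lowest at -0.97, while the D2 markers have a median of 1.74 and the D1 markers of -2.11. Pde10a and Adcy5 changed sign under limma voom and Bcl11b with all 24 immunopurified libraries.

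Measured within each library against the mean log2 CPM of the other 8 genes, a comparison added after the values were seen, Rgs9 stood at -1.81, -1.07 and 0.18 (lowest, median and highest of 24 immunopurified libraries), against -0.02 in the nonescalating and 0.84 in the saline input. It lay below both inputs in 22 of 24. Bcl11b was likewise below both in 20 of 24, with a median of -0.71 against -0.15 and -0.34. Foxp1, at a median of 0.74 against 0.25 and -0.03, was above both in 22 of 24, Gng7 and Scn4b in 21 of 24 each, and Ppp1r1b in 19 of 24. Adcy5 differed between library sets on this measure, with a median of -0.72 in the 16 libraries of set 1 and -1.33 in the 8 of set 2, and Meis2 was above both inputs in 8 of 8 libraries of set 2 and in 3 of 16 of set 1. These values are relative to genes that themselves vary, and no test was made on them. The share of all genes with such counts was not computed, so the counts cannot be called unusual.

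**Figure D3:**
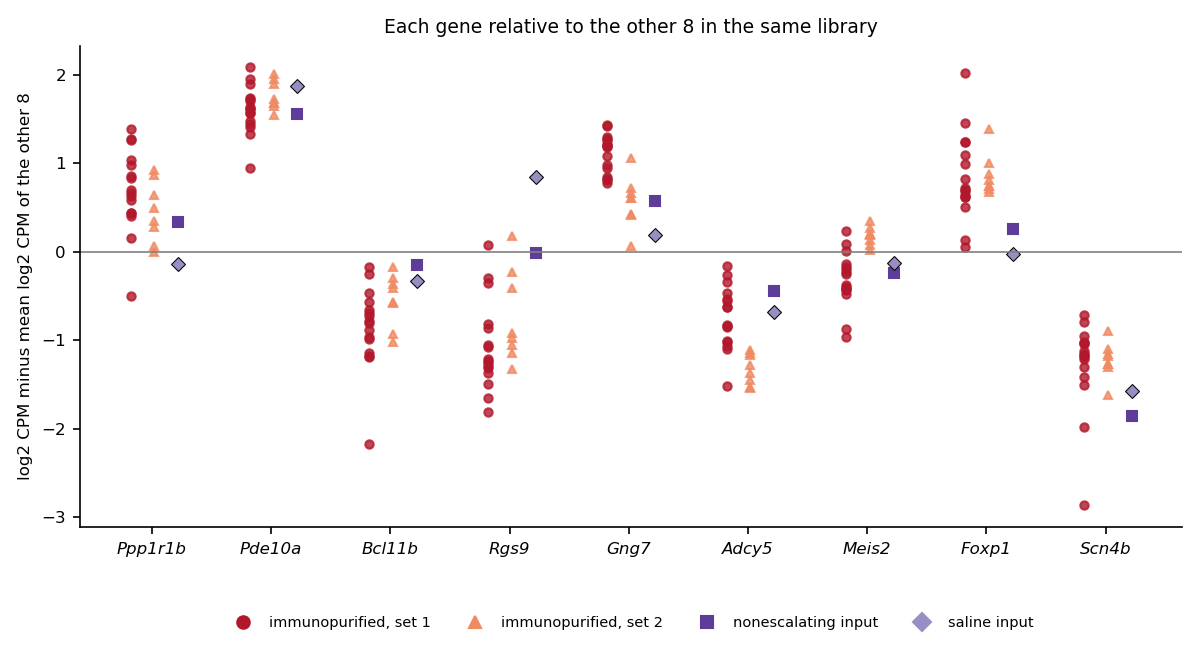
Log2 CPM of each gene minus the mean log2 CPM of the other 8 in the same library (y axis) for each gene (x axis), with immunopurified libraries of both sets beside the 2 inputs. The Rgs9 points of 22 of 24 immunopurified libraries lie below both inputs, and those of Foxp1 lie above both in 22 of 24. The share of all genes with such counts was not computed.

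The sequence before the start of each gene is given for Rgs9 and Gng7, the cyclic AMP genes with the lowest and the highest fold change against input. The RefSeq table of promoters on GRCm38.p6 holds entries for 8 of the 9 genes, 12 windows in all, and Ppp1r1b is named only. The 250 bases before the start are shown 5′ to 3′ on the gene's strand, and capitals mark the GC box GGGCGG read on either strand. Rgs9 occupies chr11:109225355-109298129 on the minus strand of GRCm38, and its window is chr11:109298182-109298431, which shares 0 bases with annotated exons. Gng7 occupies chr10:80948624-81014945 on the minus strand, and the window of its upstream start is chr10:81014926-81015175, of which 20 bases lie in annotated exons. The other genes lie at chr11:98348404-98357796 (Ppp1r1b, plus strand), chr17:8525372-8986648 (Pde10a, plus), chr16:35154877-35305738 (Adcy5, plus), chr12:107910403-108003602 (Bcl11b, minus), chr2:115863064-116065839 (Meis2, minus), chr6:98925338-99522721 (Foxp1, minus) and chr9:45138395-45154152 (Scn4b, plus).
Rgs9: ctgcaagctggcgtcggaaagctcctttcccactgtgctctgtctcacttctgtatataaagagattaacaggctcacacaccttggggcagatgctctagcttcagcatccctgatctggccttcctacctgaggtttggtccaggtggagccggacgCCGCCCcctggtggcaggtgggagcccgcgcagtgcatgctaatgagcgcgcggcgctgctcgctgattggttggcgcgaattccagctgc
Gng7: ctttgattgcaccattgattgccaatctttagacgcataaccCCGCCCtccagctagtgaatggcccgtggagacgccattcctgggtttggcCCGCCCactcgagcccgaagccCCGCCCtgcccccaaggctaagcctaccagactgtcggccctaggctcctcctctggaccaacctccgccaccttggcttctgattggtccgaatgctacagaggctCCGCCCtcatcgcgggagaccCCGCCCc

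The Rgs9 window holds 1 GC box and 14 CpG pairs in 59.6% G and C, and the Gng7 window 5 GC boxes and 15 CpG pairs in 62.8%. A GC box occurs in 5 of the 8 genes with a window, in 6 of 12 windows, and in 32.7% of the 32851 windows of all genes. The MEIS core TGACAG occurs in 2 of 12 windows, 1 of Foxp1 and the downstream one of Gng7, and in 15.9% of all windows. The cyclic AMP response element TGACGTCA and the forkhead core TGTTTAC occur in 0 of 12, and in 1.55% and 3.17% of all windows. All were searched on both strands, and a missing match says only that these letters are not in this window.

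Genes around the 9 in the same path gave few calls against input. Of 48 partners in cyclic AMP and DARPP-32 signalling, 22 were above 0 with a median of -0.12 and 0 were called. The smallest p among them belonged to the phosphodiesterase Pde1a with a log2 fold change of -1.67 (adjusted p = 0.134 by edgeR), the inhibitory subunit gene Gnai1 with -1.33 and the spinophilin gene Ppp1r9b with 1.23. Of 29 tested paralogs of the 9 genes 11 were above 0, with a median of -0.24, and 1 was called. That gene, Adcy4, is a cyclase relative of Adcy5 and had 30.0, 91.8 and 282 CPM in the 8 immunopurified libraries, against 0.414 and 1.60 CPM in the nonescalating and saline inputs (log2 fold change 7.06, adjusted p = 0.017 by edgeR). The endothelial markers summed to 857 to 5055 CPM in the same 8 libraries and 101 and 299 CPM in the inputs, and 8 of 8 of them were above 0. Their part in the Adcy4 result was not tested.

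Of 29 other shared markers of medium spiny neurons 22 were above 0, with a median of 0.38 and 0 called. The smallest p there belonged to Syndig1l with 1.68, followed by Gad1, the gene of a GABA-synthesising enzyme, with -1.14. Of 24 striatal developmental transcription factors 11 were above 0, with a median of -0.12, and 1 was called, Ebf1, at 103 to 310.2 CPM in the 8 immunopurified libraries, against 22.3 and 20.2 CPM in the nonescalating and saline inputs (log2 fold change 3.17, adjusted p = 0.036 by edgeR). The 7 markers of pericytes and smooth muscle summed to 651 to 4986 CPM in the same 8 libraries, against 113 and 159 CPM in the inputs, and their part in the Ebf1 result was not tested. Some genes stand in more than 1 of these lists.

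Between the immunopurified groups, the comparisons ask whether the cocaine history or withdrawal went with a shift of shared neuron genes inside the D2 pull-down. One fit of all 24 immunopurified libraries, with group and library set as terms, tested 15854 genes. The levels are given first, as mean CPM ± SD over libraries.

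Among the cyclic AMP genes, Ppp1r1b averaged 1764 ± 22.5 CPM in escalating, 1076 ± 499 in nonescalating withdrawal, 858 ± 655 in nonescalating, 1112 ± 366 in saline withdrawal and 1092 ± 609 in saline libraries. Gng7 averaged 1736 ± 15.9 CPM in escalating, 1129 ± 429 in nonescalating withdrawal, 1149.6 ± 641 in nonescalating, 1348 ± 248 in saline withdrawal and 1262 ± 409 in saline libraries. Adcy5 averaged 577 ± 140.5 CPM in escalating, 345 ± 139 in nonescalating withdrawal, 399.8 ± 197 in nonescalating, 415 ± 67.2 in saline withdrawal and 365 ± 174 in saline libraries. For these 3 genes the escalating mean, of 2 libraries, was above the next group by more than the larger SD over all libraries. In library set 1, the only set with escalating libraries, the next group was nonescalating withdrawal, at 1319 ± 730.1 CPM for Ppp1r1b, 1495 ± 435 for Gng7 and 444 ± 196 for Adcy5, and each gap was within the larger SD. Pde10a averaged 2575 ± 653 CPM in escalating, 1992 ± 558 in nonescalating withdrawal, 1343 ± 712 in nonescalating, 2577 ± 757 in saline withdrawal and 1833 ± 1122 in saline libraries. Rgs9 averaged 361 ± 74.3 CPM in escalating, 455 ± 139.9 in nonescalating withdrawal, 315 ± 140.1 in nonescalating, 429 ± 175 in saline withdrawal and 321 ± 150.4 in saline libraries. Pde10a had its highest mean in saline withdrawal and Rgs9 in nonescalating withdrawal over all libraries, but within set 1 in escalating and in saline withdrawal, each time by less than the SD.

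Among the transcription factor genes, Bcl11b averaged 616 ± 323 CPM in escalating, 513 ± 154 in nonescalating withdrawal, 322 ± 157 in nonescalating, 492 ± 147 in saline withdrawal and 434 ± 428 in saline libraries. Meis2 averaged 643 ± 249 CPM in escalating, 653 ± 186 in nonescalating withdrawal, 466.2 ± 219 in nonescalating, 808 ± 249 in saline withdrawal and 580.5 ± 189.9 in saline libraries. Foxp1 averaged 1099 ± 173 CPM in escalating, 1176 ± 203 in nonescalating withdrawal, 973 ± 262 in nonescalating, 1240.1 ± 236 in saline withdrawal and 1119 ± 323 in saline libraries. Foxp1 was the steadiest of the 9, with a coefficient of variation of 20.9% over the 24 libraries, against 34.3% to 46.7% for the other 8. The channel subunit Scn4b averaged 469 ± 32.1 CPM in escalating, 328 ± 101 in nonescalating withdrawal, 226 ± 122 in nonescalating, 405 ± 109 in saline withdrawal and 368 ± 279 in saline libraries. Of the 36 pairs of neighbours in the order of group means, 33 differed by less than the larger SD. Escalating was the highest group for 5 genes, saline withdrawal for 3 and nonescalating withdrawal for 1, and nonescalating was the lowest for 7 and nonescalating withdrawal for 2. These means pool the library sets, and the order changed within set 1, a split added after the values were seen. There escalating was highest for 7 genes and saline withdrawal for 2, nonescalating was lowest for 8 and saline for 1, and 36 of 36 neighbours differed by less than the larger SD.

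The escalating and nonescalating groups both took cocaine, and their comparison asks what went with the rise in intake. All 9 genes had fold changes above 0, with a median log2 fold change of 0.60, where the median of all genes was -0.12 and 45.5% lay above 0. By edgeR 0 of 9 passed and 0% of all 15854 genes were called. At an unadjusted p under 0.05 the count was 0 of 9, against 8.75% of all genes. DESeq2 and limma voom called 0 of 9, and 225 and 8 of all genes. Median-of-ratios scaling moved the median of all genes by -0.13, and left 9 of 9 above 0 with a median of 0.51.

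Scn4b had 491 and 446 CPM in the escalating libraries, against 236, 235, 361, 27.0 and 268 CPM in the nonescalating libraries. The groups did not overlap, which held in this direction for 5% of all genes and in the other for 4.07%. The log2 fold change was 1.07 ± 0.53 (SE, unadjusted p = 0.0512, adjusted p = 0.558 by edgeR). Pde10a had 2113 and 3036.5 CPM in the escalating libraries, against 2105, 1030.4, 1802, 285 and 1491 CPM in the nonescalating libraries. It too did not overlap, by the margin between 2113 and 2105 CPM, with a log2 fold change of 0.95 ± 0.47 (adjusted p = 0.558 by edgeR). The other 7 genes overlapped.

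Ppp1r1b had 1749 and 1780.4 CPM in the escalating libraries, against 1888, 639, 988, 117 and 659 CPM in the nonescalating libraries, so that 1 nonescalating library was above both escalating ones (log2 fold change 1.05 ± 0.56, adjusted p = 0.56 by edgeR). Bcl11b had 387 and 845 CPM, against 437, 209, 482, 112 and 370.3 CPM (0.95 ± 0.52). Gng7 was at 0.60, Adcy5 at 0.54, Meis2 at 0.48, Rgs9 at 0.21 and Foxp1 at 0.18, with adjusted p from 0.673 to 0.926 by edgeR. Without nonescalating replicate 4 the median was 0.35, and without nonescalating replicate 1 it was 0.91.

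In this comparison the D2 markers had a median of 0.50 with 7 of 8 above 0, the other shared markers a median of 0.44 with 25 of 29 above 0, and the cyclic AMP partners a median of 0.29 with 36 of 48 above 0. None of these lists held a called gene. The smallest p among the other shared markers was that of Tmem158 at 1.71 and among the partners that of the anchoring protein gene Akap5 at 0.91. Summed D2 markers were 8329 and 8055 CPM in the escalating libraries, against 1336 to 9846 CPM in the nonescalating ones, and records in no feature were 47.2% and 31.3%, against 34.0% to 62.5%. Astrocyte markers had fold changes below 0 for all 8 genes, with sums of 1071 to 1656 CPM in the escalating libraries, against 370.4 to 2583 CPM in the nonescalating ones. The part of these measures in the result was not tested.

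In nonescalating cocaine libraries set against saline libraries, most of the 9 genes had fold changes below 0, none past the test. The median log2 fold change of the 9 genes was -0.35 with 1 of 9 above 0, Adcy5 at 0.09 ± 0.39, against a median of 0.01 and 50.4% above 0 for all genes. The sign of Rgs9, at -0.06 ± 0.41, turned under median-of-ratios scaling, DESeq2 and limma voom. By edgeR 0 of 9 and 0% of all genes were called, and at an unadjusted p under 0.05 the counts were 0 of 9 and 6.74%. DESeq2 and limma voom called 0 of 9, and 34 and 0 of all genes. Scn4b had the largest value, with 236, 235, 361, 27.0 and 268 CPM in nonescalating libraries, against 206, 691 and 208 CPM in saline libraries (log2 fold change -0.75 ± 0.47, adjusted p = 0.816 by edgeR). For Scn4b, saline replicate 3 at 691 CPM and nonescalating replicate 4 at 27.0 CPM were the extremes of their groups, and the groups overlapped, as they did for all 9 genes. Of all genes, 1.26% were higher and 1.12% lower in nonescalating libraries without overlap.

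The sign of that median rested on 1 saline library. Saline replicate 3 held the highest level of the 3 for all 9 genes, such as 3096 CPM against 955 and 1447 CPM for Pde10a and 919 against 110.4 and 273 CPM for Bcl11b. Without it the median was 0.17, and without nonescalating replicate 4 it was -0.10. Its records in no feature, at 29.7%, were the fewest of the 24 libraries, and its D2 sum, at 10350.0 CPM, the highest, and their part in the result was not tested. Oligodendrocyte markers were above 0 for 9 of 9 genes, with sums of 392 to 3485 CPM in nonescalating libraries, against 429 to 3113 CPM in saline libraries, and their part was not tested either. Other shared markers were above 0 for 6 of 29 genes, with a median of -0.29, and cyclic AMP partners for 12 of 48, with a median of -0.25. The smallest p among both the shared markers and the transcription factors was that of the retinoic acid receptor gene Rarb, at -1.86 ± 0.54 (adjusted p = 0.719 by edgeR).

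Escalating libraries were set against saline libraries in the same fit, so this comparison shares its escalating and its saline libraries with the comparisons above. The median of the 9 genes was 0.44 with 8 of 9 above 0, against -0.08 and 46.7% for all genes. The exception was Foxp1 at -0.05 ± 0.37, whose sign turned under limma voom. By edgeR 0 of 9 and 0% of all genes were called, and at an unadjusted p under 0.05 the counts were 0 of 9 and 8.09%. DESeq2 and limma voom called 0 of 9, and 143 and 0 of all genes. Ppp1r1b had 1749 and 1780.4 CPM in escalating libraries, against 769, 1794 and 712 CPM in saline libraries (log2 fold change 0.67 ± 0.63, adjusted p = 0.829 by edgeR). Adcy5 had 477 and 676 CPM in escalating libraries, against 359, 542.5 and 195 CPM in saline libraries (0.63 ± 0.48). Saline replicate 3 lay above the lower escalating library for all 9 genes, and the groups overlapped for all 9. Of all genes, 7.66% were higher and 6.55% lower in escalating libraries without overlap. The median was 1.09 without saline replicate 3 and 0.036 without saline replicate 1. D2 markers were above 0 for 8 of 8 genes, with a median of 0.36 and sums of 8329 and 8055 CPM in escalating libraries, against 4512 to 10350.0 CPM in saline libraries. Microglia markers were above 0 for 2 of the 7 tested, with a median of -2.37, and all 8 listed summed to 28.7 to 78.8 CPM in escalating libraries, against 19.4 to 443 CPM in saline libraries, with Aif1 at 0 in both escalating libraries. Astrocyte markers were above 0 for 2 of 8, with a median of -0.56 and sums of 1071 to 1656 CPM, against 970.1 to 2206 CPM. The part of these measures in the result was not tested.

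**Figure D4:**
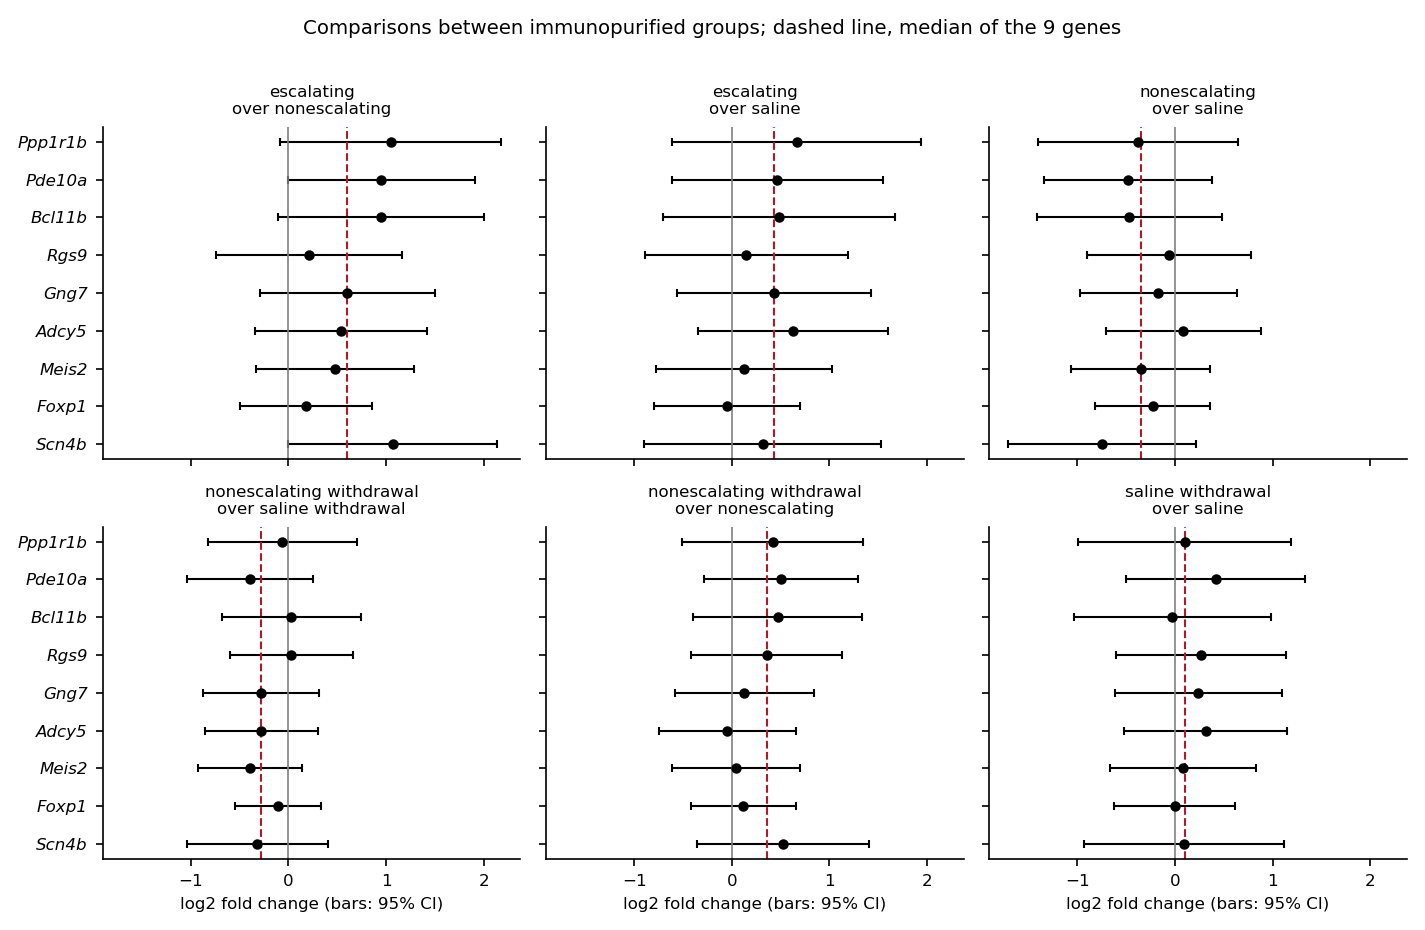
Log2 fold change with 95% confidence interval (x axis) for each gene (y axis) in 6 comparisons between immunopurified groups, with a dashed line at the median of the 9. All intervals include 0, and the medians run from -0.35 in nonescalating over saline to 0.60 in escalating over nonescalating. The sign of Rgs9 in nonescalating over saline and of Bcl11b in saline withdrawal over saline turned under median-of-ratios scaling.

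After withdrawal, nonescalating cocaine libraries were compared with saline libraries within both library sets. The median of the 9 genes was -0.28 with 2 of 9 above 0, against 0.05 and 53.5% for all genes, and their fold changes ran from -0.39 to 0.03. Under limma voom 1 of 9 was above 0, as the sign of Rgs9 turned. By edgeR 0 of 9 and 0% of all genes were called, and at an unadjusted p under 0.05 the counts were 0 of 9 and 3.49%. DESeq2 and limma voom called 0 of 9, and 2 and 0 of all genes. Meis2, with the smallest p of the 9, had 367, 610 and 947 CPM (lowest, median and highest) in 8 nonescalating withdrawal libraries, against 370.4, 868 and 1061 CPM in 6 saline withdrawal libraries (log2 fold change -0.39 ± 0.26, adjusted p = 1 by edgeR). Pde10a had 1286, 1913 and 2792 CPM, against 1126, 2874 and 3161 CPM (-0.39 ± 0.32). In both genes the medians were apart and the ranges overlapped. The groups overlapped for all 9 genes, and of all genes 0.0189% were higher and 0.0126% lower in nonescalating withdrawal libraries without overlap.

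Within library sets the median of the 9 genes was -0.03 in set 1 and -0.37 in set 2. The 95% interval of Meis2 was -0.93 to 0.14 and that of Pde10a -1.04 to 0.25. Other shared markers were above 0 for 2 of 29 genes, with a median of -0.24, and D2 markers for 2 of 8, with a median of -0.24. The D2 sum had a median of 6745 CPM in nonescalating withdrawal libraries, against 8058 CPM in saline withdrawal libraries, and records in no feature had medians of 41.6% and 35.4%. Astrocyte markers were above 0 for 7 of 8 genes, with sums of 445 to 1861 CPM in nonescalating withdrawal libraries, against 375 to 1114 CPM in saline withdrawal libraries. The part of these measures in the result was not tested.

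Withdrawal was then compared with no withdrawal in each history. Only the withdrawal groups have libraries of set 2, and the fold changes are adjusted for this by the set term. The levels, sums and percentages printed beside them pool both sets without adjustment. In nonescalating animals the median of the 9 genes was 0.36 with 8 of 9 above 0, against 0.01 and 50.5% for all genes. The exception was Adcy5, whose sign turned under limma voom. Fold changes ran from -0.05 to 0.52, with 0 of 9 and 0% of all genes called by edgeR, 0 of 9 and 2.78% at an unadjusted p under 0.05, and 0 of 9 and 0 of all genes by DESeq2 and by limma voom. Pde10a had 1286, 1913 and 2792 CPM in withdrawal libraries, against 2105, 1030.4, 1802, 285 and 1491 CPM without withdrawal (log2 fold change 0.51 ± 0.39, adjusted p = 1 by edgeR). Scn4b had 185, 326 and 484 CPM in withdrawal libraries, against 236, 235, 361, 27.0 and 268 CPM without (0.52 ± 0.43). The groups overlapped for all 9 genes, and of all genes 0.0631% were higher and 0.0568% lower with withdrawal without overlap. The median was 0.14 without nonescalating withdrawal replicate 4 of set 1. Microglia markers were above 0 for 0 of 7 genes, with a median of -1.55 and sums of 1.91 to 33.9 CPM in withdrawal libraries, against 12.7 to 114 CPM without. Astrocyte markers were above 0 for 0 of 8, with a median of -0.76 and sums of 445 to 1861 CPM, against 370.4 to 2583 CPM. Oligodendrocyte markers were above 0 for 2 of 9, with a median of -0.70 and sums of 226 to 792 CPM, against 392 to 3485 CPM. D2 markers were above 0 for 5 of 8, with a median of 0.08 and a median sum of 6745 CPM, against 5386 CPM, and records in no feature had medians of 41.6% and 49.7%. The part of these measures in the result was not tested.

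In saline animals the median was 0.10 with 7 of 9 above 0, against -0.05 and 47.5% for all genes. The sign of Bcl11b turned under median-of-ratios scaling, DESeq2 and limma voom, and that of Foxp1 under limma voom. By edgeR 0 of 9 and 0% of all genes were called, and at an unadjusted p under 0.05 the counts were 0 of 9 and 6.64%. DESeq2 and limma voom called 0 of 9, and 30 and 0 of all genes. Pde10a had 1126, 2874 and 3161 CPM in saline withdrawal libraries, against 955, 3096 and 1447 CPM in saline libraries (log2 fold change 0.42 ± 0.45, adjusted p = 0.947 by edgeR). Adcy5 had 297, 426 and 479.6 CPM, against 359, 542.5 and 195 CPM (0.32 ± 0.41). The groups overlapped for all 9 genes, and of all genes 1.21% were higher and 1.1% lower with withdrawal without overlap. Without saline replicate 3 the median was 0.80, and without saline replicate 1 it was -0.068. Microglia markers were above 0 for 0 of 7 genes, with a median of -2.28 and sums of 6.16 to 39.4 CPM in saline withdrawal libraries, against 19.4 to 443 CPM in saline libraries, with C1qa at 0 in all 6 withdrawal libraries. Astrocyte markers were above 0 for 1 of 8, with a median of -0.94 and sums of 375 to 1114 CPM, against 970.1 to 2206 CPM. Markers of pericytes and smooth muscle were above 0 for 1 of 7, with a median of -0.47 and sums of 120.3 to 3491 CPM, against 858 to 4986 CPM. In set 1 these saline withdrawal sums were 3491, 1048 and 1687 CPM, within the saline range, and in set 2 they were 120.3, 538 and 171 CPM. D2 markers were above 0 for 6 of 8, with a median of 0.12, and records in no feature had medians of 35.4% and 45.6%. The part of these measures in the result was not tested.

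The difference between these withdrawal effects, nonescalating minus saline, had a median of 0.09 with 6 of 9 above 0, against 0.07 and 53.3% for all genes. Under limma voom 7 of 9 were above 0, and the signs of Rgs9, Gng7 and Meis2 turned. It ran from -0.36 for Adcy5 (± 0.48) to 0.50 for Bcl11b (± 0.58), with adjusted p of 1 by edgeR for all 9. By edgeR 0 of 9 and 0% of all genes were called, 0 of 9 and 4.89% had an unadjusted p under 0.05, and DESeq2 and limma voom called 0 of 9 and 11 and 0 of all genes. In library set 1 alone the difference of Adcy5 was 0.015, and without saline replicate 3 the median of the 9 genes was -0.41.

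Across libraries the 9 genes varied together. Over the 24 immunopurified libraries the 36 pairs of genes had Pearson correlations of log2 CPM from 0.40 to 0.94 with a median of 0.73, and all 36 were above 0. Over all pairs of genes whose mean log2 CPM reached 5, the median was 0.04. The libraries share depth, purity and scaling across genes, and correlations are given as a description. The median was 0.63 without nonescalating replicate 4 and 0.83 within library set 1. In set 2, over 8 libraries, it was 0.65, with 28 of 36 pairs above 0.

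Pde10a and Scn4b were the closest pair, with r = 0.94 over 24 libraries and 0.93 in set 2. Ppp1r1b and Gng7 had r = 0.90, and Gng7 and Adcy5 0.87. Rgs9 was the loosest, with a median r to the other 8 of 0.64 over 24 libraries, 0.69 in set 1 and -0.65 in set 2. Its lowest correlation over 24 libraries was with Gng7, at 0.40. The gene closest to Rgs9 among 4732 searched was the GABA receptor subunit gene Gabra4, with r = 0.85 over 24 libraries and -0.27 in set 2, so that neighbour did not hold in both sets.

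Among the genes closest to the mean of the 9, of 4724 others of that abundance, were Penk, the enkephalin precursor gene of D2 neurons, with r = 0.94, Pde1b, the calmodulin-dependent phosphodiesterase gene, and Hpca, Cplx2 and Rtn1 with 0.93 each, then Pcp4l1, Ptk2b, Wipf3 and Rgs8 down to 0.92. In set 2 alone Penk had r = 0.54, while Rgs8 was at 0.87. Single genes had other neighbours: Bcl11b was closest to Rad23b (r = 0.94), Meis2 to Rab3c (0.95), Foxp1 to Syt11 (0.92), Gng7 to Adora2a (0.91) and Ppp1r1b to Rgs8 (0.93).

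The mean log2 CPM of the 9 genes ran from 7.32 in nonescalating replicate 4 to 10.07 in saline replicate 3. Over 24 libraries it rose with the log2 summed D2 markers, with Pearson r = 0.96 and Spearman rho = 0.85, and r = 0.89 without the 2 libraries farthest from the median. It fell with the percent of records in no feature, with r = -0.86, rho = -0.84 and r = -0.86 without the 2 farthest. Within library set 1 these r were 0.97 and -0.89, and within set 2 0.83 and -0.66. With the D1 sum r was 0.54 over all, 0.67 in set 1 and -0.71 in set 2. With the endothelial sum it was -0.57, -0.69 and -0.45. Which of these measures, if any, sets the level of the 9 genes in a library was not tested.

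**Figure D5:**
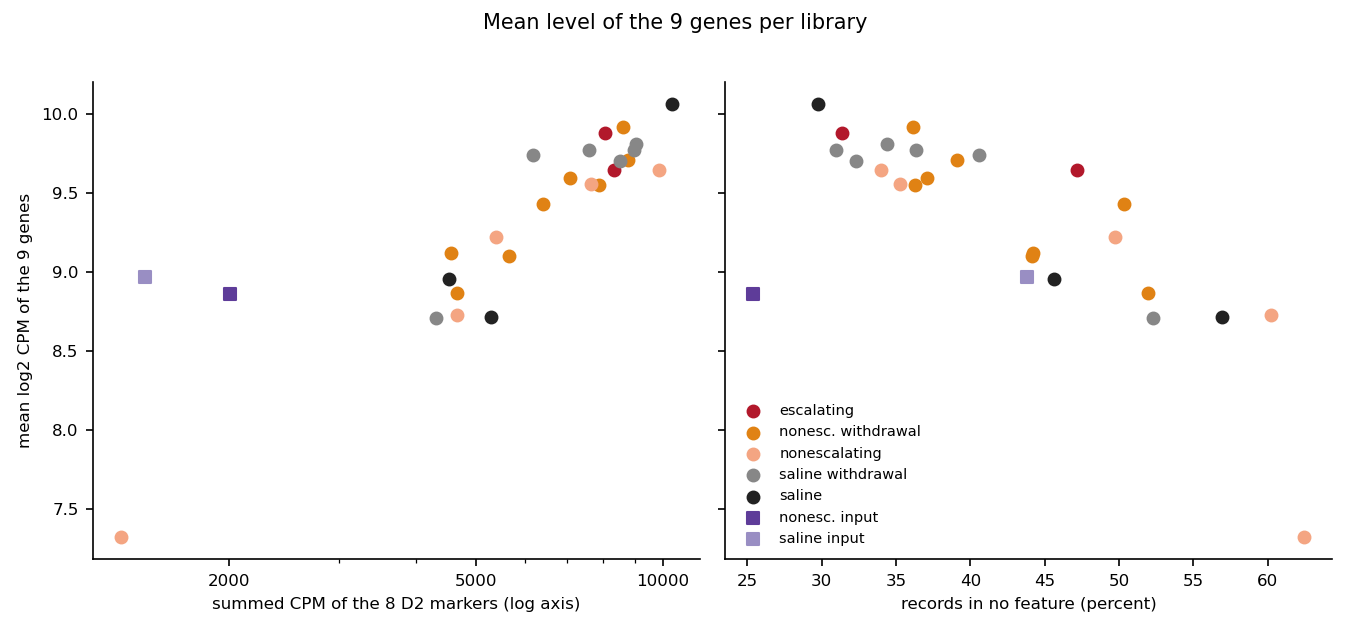
Mean log2 CPM of the 9 genes (y axis) against the summed CPM of 8 D2 markers on a log axis and against the percent of records in no feature (x axes), with a point per library. The 24 immunopurified libraries give r = 0.96 and -0.86, the lowest point at 7.32 is nonescalating replicate 4, and the inputs (squares) lie apart, at D2 sums of 2001 and 1462 CPM.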

How the data were processed

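RNA from the accumbens nucleus was sequenced in 26 libraries. The deposited files give whole-number read counts per gene symbol, 1 file a library, not normalized. Per the submitters' processing notes, the authors used STAR 2.0.0e, HTSeq and mm10; which annotation and strandedness HTSeq used is not given in the sources used here, so reads of overlapping genes on opposite strands cannot be told apart. Summary lines of HTSeq and a line without a gene (at most 1 count) stayed out of library sizes. The 31735 genes common to all files were used.

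Groups and replicate numbers follow the titles. The members and lists were chosen with earlier results of these data known. Tests used R 4.3.3 with edgeR 4.0.16 (quasi-likelihood test, robust, TMM, filterByExpr with a minimum count of 10, Benjamini-Hochberg threshold 0.05), checked on simulated counts. The input comparison fitted 8 immunopurified and 2 input libraries with agent; the others fitted 24 with group and library set. Alternatives were DESeq2 1.42.0, voom in limma 3.58.1 with quality weights, scaling by median of ratios, filters of CPM 1 or none, a replicate block, no agent or set term, other library subsets, each library left out, and, added after seeing the data, without 3 libraries of low correlation. Levels are CPM with TMM factors; log2 CPM has a prior count of 2. Correlations and counts above both inputs are descriptive. No pair of libraries of 1 group agreed within sampling noise (lowest chi-square per degree of freedom 20.4 over 57 pairs). In the shallowest immunopurified library 3 counts are 1.95 CPM, far below every level of the 9 genes. Named list genes are those called, or the 3 with the smallest p a list against input and 1 elsewhere, of which part are printed; some genes are not reported here. Gene positions come from a GENCODE annotation of GRCm38.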

Additional observations from a re-analysis of the deposited data

Results flagged for a closer look

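Levels in groups of 4 to 10 libraries were searched for a library far from the others of its group, by Dixon's ratio at the 95% level, which marks about 5% of groups by chance. Of 27 groups of 1 gene, 3 were marked. In saline withdrawal, replicate 1 of library set 1 was low for Pde10a, at 1126 CPM against 2421 to 3161 CPM in the other 5 libraries, and for Foxp1, at 771 CPM against 1295 to 1441 CPM. In nonescalating withdrawal, replicate 4 of library set 1 was high for Adcy5, at 661 CPM against 218 to 389 CPM in the other 7. The saline withdrawal library had 52.3% of its records in no feature, the highest of its group, and a D2 sum of 4297 CPM, the lowest of its group.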

How the results depend on the processing

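Of 72 fold changes, 9 genes in 8 comparisons, 31 kept their sign in every alternative run and 41 changed it in at least 1, the largest of these being 0.75 in size. Of 1494 alternative values 149 changed sign and 1 passed the threshold, Foxp1 against input, with a log2 fold change of 0.89 under voom. So the count of the 9 genes called against input was 1 under voom. The number of all genes called against input, 38, was 759 with DESeq2, 1356 with voom, 132 with no filter, 70 with a filter of CPM 1, 321 with a replicate block, 65 without the agent term, 150 with all 24 immunopurified libraries, and 1 to 252 with a library left out (1 without the saline input, 252 without saline replicate 3). Between groups edgeR called 0 genes, and DESeq2 called 34 for nonescalating over saline, 143 for escalating over saline, 225 for escalating over nonescalating (8 with voom), 2 for nonescalating withdrawal over saline withdrawal, 30 for saline withdrawal over saline and 11 for the difference of withdrawal effects. With a library left out edgeR called 0 to 1 for escalating over saline and 0 to 2 for escalating over nonescalating. The cause was not tested.

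These fold changes turned round in single alternatives. Against input, Pde10a was at -0.10 and Adcy5 at -0.13 under voom, and Bcl11b at 0.049 with all 24 immunopurified libraries and 0.15 without 3 libraries of low correlation. For nonescalating over saline, Rgs9 was at 0.028 with DESeq2 and with median-of-ratios scaling and 0.091 under voom, and Adcy5 at -0.10 against saline withdrawal of set 1. For escalating over saline, Rgs9 was at -0.11 and Meis2 at -0.014 without the 3 libraries, and Foxp1 at 0.067 under voom. Adcy5 in the difference of withdrawal effects was at 0.015 in set 1. Other than with a library left out, signs of saline withdrawal over saline turned in 7 alternatives for Bcl11b, 5 for Foxp1, 3 for Ppp1r1b, 2 for Scn4b and 1 each for Gng7 and Meis2. For nonescalating withdrawal over nonescalating they turned in 4 for Adcy5, 2 for Gng7 and 1 each for Meis2 and Foxp1. For nonescalating withdrawal over saline withdrawal they turned in 3 each for Ppp1r1b and Rgs9 and 1 each for Bcl11b, Gng7 and Adcy5, and for the difference in 4 for Meis2, 2 each for Rgs9 and Gng7 and 1 for Adcy5.

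With a library left out, fold changes against input ran from -0.10 to 0.32 for Pde10a, -0.71 to 0.12 for Bcl11b and -3.9e-05 to 0.32 for Adcy5. For nonescalating over saline they ran from -0.91 to 0.22 for Ppp1r1b, -0.79 to 0.16 for Pde10a, -0.92 to 0.75 for Bcl11b, -0.33 to 0.40 for Rgs9, -0.45 to 0.17 for Gng7, -0.23 to 0.53 for Adcy5, -0.40 to 0.039 for Foxp1 and -1.04 to 0.12 for Scn4b. For escalating over saline they ran from -0.17 to 1.71 for Bcl11b, -0.12 to 0.62 for Rgs9, -0.31 to 0.48 for Meis2 and -0.22 to 0.24 for Foxp1, for escalating over nonescalating from -0.0077 to 0.42 for Rgs9, and for the difference of withdrawal effects from -0.69 to 0.95 for Bcl11b. The median of the 9 genes ran from 0.15 to 0.39 against input, -0.54 to 0.17 for nonescalating over saline, 0.036 to 1.09 for escalating over saline, 0.35 to 0.91 for escalating over nonescalating, -0.39 to -0.14 for nonescalating withdrawal over saline withdrawal, -0.068 to 0.80 for saline withdrawal over saline, 0.14 to 0.55 for nonescalating withdrawal over nonescalating and -0.41 to 0.35 for the difference. Where this leaves 1 library in a group, that library is taken to vary like the others.

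Replicate numbers recur across groups, but same-numbered immunopurified libraries of different groups had deviations with a median r of 0.03 (47 pairs, -0.16 to 0.28). The numbers were therefore not taken to pair libraries. The inputs were left out of this check, so it cannot say whether an input pairs with the immunopurified library of its number. With the replicate block 0 of the 9 genes were called in any comparison, and the median was -0.17 for nonescalating over saline, 0.60 for escalating over saline and -0.14 for nonescalating withdrawal over saline withdrawal. The lowest count of the 9 genes in an immunopurified library was 72.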
